A study of Mus musculus with 6 samples.

Results

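Circular RNAs (circRNAs) whose listed type was intronic, sense overlapping, antisense or intergenic, that is, every type but exonic, were examined in the hippocampus. They were the 228 such rows among the 1257 readable rows of the study's list of circRNAs with a higher mean in the surgery group, and each was joined by its probe to the arrays. By type there were 45 intronic, 151 sense overlapping, 12 antisense and 20 intergenic circRNAs, beside 1029 exonic ones. The array held 14236 circRNA probes, of which 12499 were tested. All 6 mice were male C57BL/6J mice aged 12 months. In the surgery group (3 mice), an intramedullary nail was placed in a tibial fracture of the left hind leg under isoflurane with butorphenol analgesia. The control group (3 mice) received that anesthesia and analgesia without the fracture. Hippocampal RNA was taken at 72 h, digested with RNase R, labeled with Cy3 and hybridized to 1 array per mouse, so both groups share the drugs and the enzyme step. Because the list holds only circRNAs with a higher surgery mean, a higher mean after surgery is what chose the members. The differences are therefore descriptions, and a few lie below 0 under the normalization used here.

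A circRNA is a ring closed by back-splicing, in which the 3′ end of a downstream segment is joined to the 5′ end of an upstream one. Most are built of exons. Intronic circles can be intron lariats that escaped debranching, sense overlapping circles share a host gene's strand without matching its annotated exons, antisense circles are read from the opposite strand, and intergenic circles lie outside the genes of the annotation in use. RNase R degrades linear RNA from its 3′ end and leaves closed rings. The 60-base probes of this array are laid across the back-splice junction, so the sequence on either side of the junction is what identifies the circle.

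The sequences are shown first for 7 sense overlapping circles, because each of them turned out to be listed a second time under the exonic type. In these 7 pairs both listed ends agreed within 3 bases. The sense overlapping probe was the exonic probe with 2 to 6 bases added at 1 place, and the number of added bases equaled the difference between the listed lengths in all 7. Sequences are given 5′ to 3′ as the study's probe table lists them, and capitals mark the added bases. Where the added bases repeat their neighbors, their place within the repeat cannot be set.
Jmjd1c, sense overlapping (mmu_circRNA_18986): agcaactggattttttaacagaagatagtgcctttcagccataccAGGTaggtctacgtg
Jmjd1c, exonic (mmu_circRNA_018701): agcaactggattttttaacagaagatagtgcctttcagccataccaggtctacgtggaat
Ash1l, sense overlapping (mmu_circRNA_19293): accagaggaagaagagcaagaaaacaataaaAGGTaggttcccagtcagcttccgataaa
Ash1l, exonic (mmu_circRNA_009027): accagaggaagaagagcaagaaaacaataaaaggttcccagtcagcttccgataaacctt
Elf2, sense overlapping (mmu_circRNA_19280): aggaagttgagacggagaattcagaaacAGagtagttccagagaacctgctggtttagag
Elf2, exonic (mmu_circRNA_005039): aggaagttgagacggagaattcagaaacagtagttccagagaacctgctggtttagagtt
Tmem164, sense overlapping (mmu_circRNA_19548): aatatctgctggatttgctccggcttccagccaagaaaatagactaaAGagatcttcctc
Tmem164, exonic (mmu_circRNA_004752): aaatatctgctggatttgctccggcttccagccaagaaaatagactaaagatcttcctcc

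The added bases were AGGT in Jmjd1c and Ash1l, AG in Elf2 and Tmem164, CAG in Mpp6, AGG in Tcf20 and TAGGTA in Clasp2. All 7 sense overlapping entries came from 1 of the list's 3 sources, the smaller of its 2 literature sources. That source gave 48 of the 228 circles, and 45 of those 48 were sense overlapping, while it gave 1 exonic row. GT and AG are the first and the last bases of most introns. The letters GTAG stood, as listed, in 17 of the 45 probes from that source (37.8%), in 6 of 106 other sense overlapping probes (5.66%) and in 81 of 1029 exonic probes (7.87%). Counting both strands (GTAG or CTAC), the shares were 48.9%, 25.5% and 25.9%. On that count they were 35.6% in intronic, 15.0% in intergenic and 8.33% in antisense probes. This motif was chosen after the sequences were seen, and a match does not place the letters in an intron.

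A second set of sequences is shown because an end of the circle could be placed in it. For 3 sense overlapping circles, a stretch of the probe lay in a RefSeq promoter window (GRCm38.p6, 250 bases before to 50 after a gene's start), and capitals mark the stretch that matched. The window belonged to Adal itself, to Gm4129 for Usp15, and for U80893 to Gm29729, a long noncoding RNA gene on the same strand that the circle overlaps. The rest of each probe comes from the other side of the back-splice junction.
Usp15 (mmu_circRNA_18994, chr10:123146790-123181802, minus strand): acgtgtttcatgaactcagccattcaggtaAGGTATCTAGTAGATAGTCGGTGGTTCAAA
Adal (mmu_circRNA_34396, chr2:121142092-121155532, plus strand): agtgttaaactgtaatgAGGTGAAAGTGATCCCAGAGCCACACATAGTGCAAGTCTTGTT
U80893 (mmu_circRNA_41512, chr7:60902611-60939881, minus strand): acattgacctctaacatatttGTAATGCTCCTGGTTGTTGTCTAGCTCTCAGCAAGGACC

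The matched stretch of Usp15 ended at base 123181802, its listed end. That of Adal began at base 121142091, 1 base before the listed start, and that of U80893 ended at base 60939882, 1 base beyond the listed end. Adal encodes an adenosine deaminase-like enzyme and Usp15 a ubiquitin-specific protease. Coordinates are given as listed, since the list does not say whether its starts count from 0 or 1. They fit GRCm38: 1023 of 1026 exonic circles with a RefSeq host lay inside that gene, and so did 34 of 34 intronic circles. Of 136 sense overlapping circles with a RefSeq host, 120 lay inside it, as did 6 of 10 antisense circles.

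The antisense type held a pair of probes that differ at a single base. Both circles are listed with Rfwd2 (now Cop1, a ubiquitin ligase gene on the plus strand) but on the minus strand of chromosome 1, with ends shifted by 1 base. At position 49, counted from the probe's 5′ end, the difference is G49T, and capitals mark it.
mmu_circRNA_18959: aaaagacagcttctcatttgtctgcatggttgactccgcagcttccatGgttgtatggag
mmu_circRNA_001878: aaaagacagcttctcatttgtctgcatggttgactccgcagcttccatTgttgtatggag

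These circles of 140 bases lie over Mir1843b, whose hairpin RefSeq places on the plus strand at bases 159340358 to 159340423. As listed, mmu_circRNA_18959 covers the hairpin whole and mmu_circRNA_001878 ends 1 base short of it, so they run antisense to this microRNA as well as to their host. In the surgery group mmu_circRNA_18959 read 5.36, 5.49 and 5.56, and in the control group 5.56, 5.56 and 5.26 (log2 intensity). The other probe read 5.49, 5.51 and 5.32 against 5.39, 5.50 and 5.26. The groups overlapped on both probes, and the differences of 0.01 ± 0.11 and 0.06 ± 0.10 (log2 surgery minus control ± SE) were smaller than the spread between mice.

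Other circles enclosed whole microRNA genes on their own strand. The intronic circle mmu_circRNA_41529 (chr7:61714645-61814190, minus strand) held 5 hairpins of the Mir344 family, and 6 of their mature forms, those that share a seed, are given from RefSeq (GRCm38.p6) with the seed, bases 2 to 8, in capitals.
mmu-miR-344e-5p: cAGGCUUCuggcuauauucc
mmu-miR-344h-5p: cAGGCUUCuggcuauauucc
mmu-miR-344d-3-5p: aGUCAGGCuagugguuauacucc
mmu-miR-344b-5p: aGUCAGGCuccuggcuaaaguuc
mmu-miR-344d-3p: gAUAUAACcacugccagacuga
mmu-miR-344e-3p: gAUAUAACcaaagccugacuau

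The 6 forms fall into 3 pairs of equal seed. Mir344i lay in mmu_circRNA_41566 farther along chromosome 7, Mir666 and Mir543 in mmu_circRNA_011995 of chromosome 12, Mir1897 in the Sox2ot circle mmu_circRNA_35243, and Mir7090 in the Ctnnb1 circle mmu_circRNA_018520. The arrays measure the junction of the circle, not the microRNA. The intronic Rps3 circle mmu_circRNA_016283 is 150 bases long (chr7:99482784-99482934) and covers Snord15a, a small nucleolar RNA gene at bases 99482785 to 99482932. It read 5.34, 5.27 and 5.22 in the surgery group and 5.34, 5.21 and 5.09 in the control group, and the groups overlapped.

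The shortest circles are 60 bases long as listed, no longer than the probe itself. There were 2 of them, and they were the only probes of the 228 with a run of 10 or more bases that occurs again inside the same probe, against 2 of 1029 exonic probes (0.194%). Capitals mark the repeated run.
Srrm2 (mmu_circRNA_000122, chr17:23815834-23815894, plus strand): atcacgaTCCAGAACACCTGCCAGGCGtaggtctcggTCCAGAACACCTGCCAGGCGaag
Ubtf (mmu_circRNA_000728, chr11:102306884-102306944, minus strand): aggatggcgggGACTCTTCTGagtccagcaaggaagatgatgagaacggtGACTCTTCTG

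The run is 20 bases in Srrm2, with its copies 30 bases apart, and 10 bases in Ubtf, with its copies 39 bases apart. Srrm2 encodes a serine- and arginine-rich protein of the spliceosome, and Ubtf a transcription factor of RNA polymerase I. The Srrm2 probe read 7.69, 7.73 and 7.85 after surgery against 7.48, 7.16 and 7.36 in controls, with no overlap. The Ubtf probe read 5.67, 5.97 and 5.81 against 5.52, 6.07 and 5.72, with overlap. By the thresholds given next, 1 of the 14 circles listed at under 200 bases was called, that of Srrm2, beside 8.6% of tested probes with a higher surgery mean.

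All 6 arrays lay on 1 slide and no spot was saturated. The first row of the slide held all 3 controls beside surgery replicate 1, while the other 2 surgery arrays occupied the second, so slide row and group cannot be fully told apart. By column, surgery occupied 1, 1 and 2 and control 2, 3 and 4, so the same holds for slide column. Between 9257 and 13009 of the circRNA probes were detected on an array, with the fewest on control replicate 1. The values are log2 intensities after quantile normalization over all spots, differences are surgery minus control on that scale, errors are the SD of 3 mice or the SE of the limma fit, and adjusted p-values are limma's with Benjamini-Hochberg adjustment over all 12499 probes. Called means that a probe reached the study's thresholds, a fold of 1.3 or more with a limma p no higher than 0.05 before adjustment. Each mouse is 1 sample, and in tissue RNA fewer cells of a type cannot be told apart from less of a circRNA per cell.

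Of the 228 circles, 19 were called (5 intronic, 13 sense overlapping, 1 intergenic and 0 antisense). Under the alternatives the number called was 8 to 42, and it was 13 to 29 with 1 array left out. The same thresholds called 6.13% of all tested probes in either direction, 4.19% as higher after surgery, and 8.6% of the tested probes whose surgery mean was higher. The members' share was 8.33%, and the share of the 1029 exonic rows was 8.55%. With an adjusted p under 0.05, limma called 0 of the 228 and 0.048% of all tested probes (up to 8 of the 228 under other settings), while 54 of the 228 had an unadjusted p under 0.05 (20.7% of all tested probes, in either direction). The methods' t-test called 13 of the 228 at the fold and unadjusted thresholds, and 3.14% of all tested probes as higher. In 56 of the 228 the lowest surgery array lay above the highest control array, which held for 13.5% of all tested probes and 27.6% of those with a higher surgery mean. Since the list set the direction, nothing is read from these shares.

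By type, the median difference was 0.17 in the 45 intronic, 0.12 in the 151 sense overlapping, 0.10 in the 12 antisense and 0.09 in the 20 intergenic circles. It was 0.14 in the 1029 exonic rows, 0.14 in all tested probes with a higher surgery mean and -0.01 in all tested probes. Without normalization between arrays the antisense and intergenic medians were -0.018 and -0.00021. With 1 array left out the antisense median was 0.07 to 0.17. The largest difference was 0.67 among sense overlapping, 0.64 among intronic, 0.38 among intergenic and 0.32 among antisense circles. The intronic value is that of Kdm4d, well above background on 1 of 3 control arrays, and Ntrk3, well above background on all 6 arrays, followed at 0.61. Under the normalization used here 9 members had a lower mean after surgery, with Tmem161b (mmu_circRNA_19100) lowest at -0.27 ± 0.20. Its control arrays spread widely (5.58, 6.53 and 6.34) around the surgery arrays (5.81, 5.83 and 6.01). Within groups the median SD over probes was 0.12 for surgery and 0.13 for control. No test between types was made, since the types differ in number, source and brightness and the list had chosen them by mean.

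**Figure D1:**
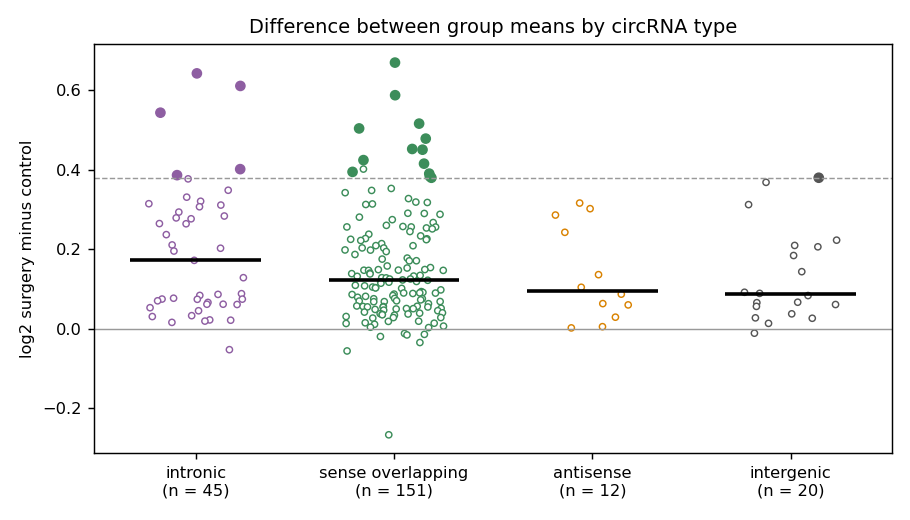
Each point is 1 circRNA, plotted by its log2 difference between the means of 3 surgery and 3 control mice. Filled points were called, thick bars are the medians by type (0.17, 0.12, 0.10 and 0.09), and the dashed line is a fold change of 1.3. Points lie mostly above 0 because the list was restricted to a higher surgery mean.

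Among the sense overlapping circles, the largest difference was that of Cnr1, which encodes the cannabinoid receptor CB1. Its circle mmu_circRNA_36624 spans 1854 bases (chr4:33943551-33945405, plus strand). Its probe, with that of Nfix, is shown because both were well above background on all 6 arrays and separated the groups.
Cnr1 (mmu_circRNA_36624): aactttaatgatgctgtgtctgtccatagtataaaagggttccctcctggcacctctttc
Nfix (mmu_circRNA_19492): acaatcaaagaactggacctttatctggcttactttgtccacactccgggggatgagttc

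The Cnr1 probe read 8.23, 8.15 and 8.0 in the surgery group and 7.60, 7.35 and 7.42 in the control group. Every surgery array lay above every control array, and the means were 8.13 ± 0.12 and 7.46 ± 0.13 (SD, n = 3 each). The difference of 0.67 ± 0.11 is a fold change of 1.59, with a limma adjusted p of 0.0552, the lowest among the 228. It was the only member called under every alternative processing, and the adjusted p ranged from 0.00158 to 0.704 over them.

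Nfix encodes a transcription factor of the nuclear factor I family. Its circle mmu_circRNA_19492 is 534 bases long (chr8:84771782-84772316, minus strand) and read 10.58, 10.49 and 10.26 after surgery against 10.11, 9.98 and 9.88. The groups did not overlap, and the difference was 0.45 ± 0.11 (limma adjusted p = 0.087). Smyd4, a gene of the SMYD family of SET-domain proteins, gave a circle of 1160 bases (chr11:75390068-75391228, plus strand). It read 8.2, 8.0 and 7.74 against 7.65, 7.22 and 7.52, a difference of 0.52 ± 0.14 (limma adjusted p = 0.106). The lowest surgery array was only slightly above the highest control array. Cnr1, Nfix and Smyd4 were each called in all 6 fits that left out 1 array. With slide column in the fit, Nfix at 0.19 and Smyd4 at 0.28 were not called, while Cnr1 was called at 0.47. With slide row in the fit the difference was 0.77 in Cnr1, 0.59 in Nfix and 0.74 in Smyd4.

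Cacna2d1 encodes the alpha-2/delta-1 subunit of voltage-gated calcium channels. Its sense overlapping circle mmu_circRNA_38126 (chr5:16299452-16328044, plus strand) read 7.12, 7.52 and 7.34 after surgery and 7.02, 6.69 and 6.76 in controls. The difference was 0.50 ± 0.13 (limma adjusted p = 0.0916), with surgery replicate 1 close to the highest control. With slide row in the fit the difference of Cacna2d1 was 0.29. With slide column it was 0.35, and the circle was not called. Taf15, an RNA-binding protein of the FET family, read 6.51, 6.95 and 6.50 against 6.29, 6.47 and 5.77, with control replicate 3 far below the others. Without that array, or without surgery replicate 2, Taf15 was no longer called.

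The Ccny circle (mmu_circRNA_31247, from the cyclin Y gene) showed how a difference could rest on 2 arrays. It read 6.33, 7.08 and 7.16 after surgery and 6.34, 6.20 and 6.26 in controls. Surgery replicate 1 lay within the controls, and the other 2 surgery arrays lay far above. The difference over all arrays was 0.59 ± 0.19, and with slide row in the fit, which leaves surgery replicate 1 against the controls, it was 0.06. Ap2b1 (mmu_circRNA_19028, an adaptor subunit of clathrin coats), singled out after its values were seen, had the same layout with 6.65, 7.24 and 7.09 against 6.59, 6.55 and 6.65. Leaving out surgery replicate 2 ended the calls of Ccny, Ap2b1 and Strbp, leaving out surgery replicate 3 or control replicate 2 also ended that of Ap2b1, and leaving out control replicate 3 ended that of Strbp. In Strbp (mmu_circRNA_19242, a double-stranded RNA-binding protein) surgery replicate 1 read 5.91 against a highest control of 5.89, and its difference of 0.45 became 0.10 with slide row in the fit. In 17 of the 19 called circles surgery replicate 1 lay above all 3 controls. With slide row in the fit that 1 surgery mouse stands alone against the controls, so nothing is read from the number of calls in that fit. With slide column in the fit, 5 of the 19 were called (Cnr1, Ccny, Srrm2, Nbas and Zswim6), and the difference of Taf15 went from 0.48 to 0.06.

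Tmem164, a predicted membrane protein gene, gave the other case of an edge. Its sense overlapping circle read 5.52, 5.55 and 5.40 after surgery against 5.18, 5.04 and 5.11, and no control array was well above background. The surgery mean was therefore at least 1.26-fold the level that could be measured in controls, taking for each control array the higher of its own value and the lowest signal well above background. The remaining called sense overlapping circles came from Srrm2 (0.42), Nbas (0.41), Zswim6 (0.39) and Gfm1 (0.38), the last 3 named after their values were seen. Each lost its call in at least 1 fit with an array left out: Nbas without control replicate 1, Srrm2 and Zswim6 without surgery replicate 3 or control replicate 2, and Gfm1 when any of surgery replicates 2 and 3 and control replicates 2 and 3 was dropped. Tmem164 lost it when any of surgery replicates 1 and 2 and control replicates 2 and 3 was dropped. The intergenic mmu_circRNA_31477 lay just above the fold threshold at 0.38. So did the measured means of Tmem164, whose bound of 1.26-fold lies under the threshold. Just below it were the intergenic mmu_circRNA_28367 at 0.37 and the intronic Gak circle mmu_circRNA_39136 at 0.38. By p-value among members past the fold threshold, Taf15 (0.0253) and Strbp (0.0264) were the last inside, and Fndc3b (mmu_circRNA_19277) with 0.40 ± 0.19 and a limma p of 0.055 was the first outside.

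**Figure D2:**
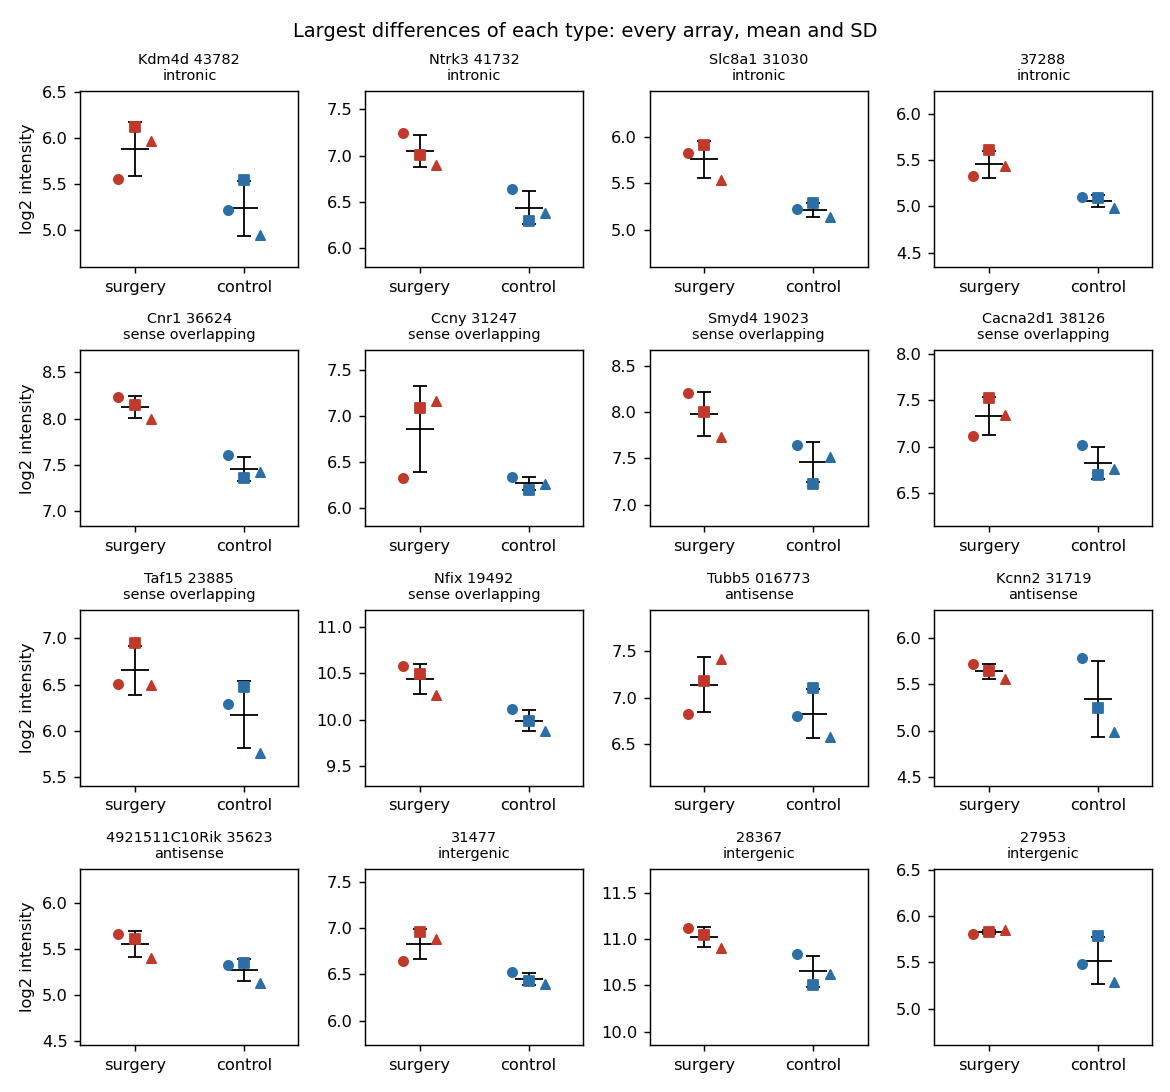
Log2 intensity on each of 6 arrays for the largest differences of each type, with circles, squares and triangles for replicates 1, 2 and 3 and black bars for the mean and SD of 3 mice. All panels span the same range of log2 units. Cnr1, Ntrk3 and Nfix separate the groups, while in Ccny surgery replicate 1 lies among the controls.

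Among the intronic circles, 5 of 45 were called, beside 8.6% of tested probes with a higher surgery mean, and their probes are shown for the first 3.
Kdm4d (mmu_circRNA_43782, chr9:14478015-14485692, minus strand): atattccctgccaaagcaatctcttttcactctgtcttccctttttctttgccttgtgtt
Ntrk3 (mmu_circRNA_41732, chr7:78356026-78374362, minus strand): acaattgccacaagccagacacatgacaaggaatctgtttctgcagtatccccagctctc
Slc8a1 (mmu_circRNA_31030, chr17:81507995-81510336, minus strand): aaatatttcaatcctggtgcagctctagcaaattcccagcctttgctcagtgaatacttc

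Kdm4d encodes a demethylase of histone H3 lysine. Its probe read 5.55, 6.12 and 5.97 in the surgery group and 5.22, 5.55 and 4.95 in the control group, and was well above background on 1 of 3 control arrays. The measured difference was 0.64 ± 0.17 (1.56-fold, limma adjusted p = 0.1), with wide spread in both groups. The lowest surgery array was almost level with the highest control. Since most control values were not well above background, the size of this fold is not exact.

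Ntrk3 encodes TrkC, the receptor of neurotrophin-3. Its probe read 7.24, 7.01 and 6.90 against 6.64, 6.30 and 6.38, with a clear gap between the groups. The difference was 0.61 ± 0.12 (1.53-fold), with a limma adjusted p of 0.0678. Slc8a1, the sodium-calcium exchanger NCX1, read 5.83, 5.91 and 5.53 against 5.22, 5.29 and 5.14, a difference of 0.54 ± 0.11 (limma adjusted p = 0.0704). Only 1 of 3 control arrays was well above background for it, so the size of its difference is not exact either. Kdm4d, Ntrk3 and Slc8a1 were called in all 6 fits that left out 1 array. Over the alternatives the difference ranged from 0.31 to 1.61 in Kdm4d, 0.35 to 0.80 in Ntrk3 and 0.33 to 1.33 in Slc8a1. None of the 3 was called with slide column in the fit, where they differed by 0.53, 0.35 and 0.35. With slide row in the fit the difference was 0.31 in Kdm4d, 0.80 in Ntrk3 and 0.61 in Slc8a1.

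The circle mmu_circRNA_37288, listed with no host symbol (chr4:103755801-103844910, plus strand), was well above background on all 3 surgery arrays and on no control array. It read 5.32, 5.61 and 5.43 against 5.09, 5.09 and 4.98, which gives a surgery mean at least 1.23-fold the measurable control level. Npas3, a neuronal transcription factor gene, was the fifth called intronic host (0.39 ± 0.09, named after its values were seen), with narrow groups of 6.00, 6.01 and 5.97 against 5.69, 5.55 and 5.58. Without surgery replicate 2 or control replicate 3 neither of these circles was called, nor was Npas3 without control replicate 2.

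Exonic circles of the same host stood on the list for 34 of the 228 circles, from 32 hosts. For Slc8a1 the intronic circle differed by 0.54 and the exonic mmu_circRNA_31020 by 0.13 ± 0.11. For Cacna2d1 the sense overlapping circle differed by 0.50, and the exonic mmu_circRNA_006797 and mmu_circRNA_38123 by 0.15 ± 0.12 and -0.03 ± 0.09. The reverse order also occurred. For Specc1l the short sense overlapping circle of 72 bases differed by 0.25 and the exonic mmu_circRNA_22225 by 0.65 ± 0.15, and for Agfg1 the values were 0.17 and 0.48 ± 0.09. The differences between circles of a host were not tested.

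The 7 circles listed under both types give a check of how far 2 probes for nearly the same ring follow each other. The difference between the probes varied over the 6 arrays with an SD of 0.04 in Jmjd1c, 0.04 in Mpp6, 0.05 in Tcf20, 0.12 in Tmem164, 0.13 in Ash1l, 0.15 in Clasp2 and 0.15 in Elf2. In Mpp6 a low control replicate 2 appeared on both probes, at 7.81 and 7.80 against 8.36 to 8.66 on the other 5 arrays. Surgery minus control, sense overlapping first, was 0.20 and 0.23 in Jmjd1c, 0.15 and 0.19 in Mpp6, 0.12 and 0.14 in Tcf20, and 0.06 and 0.12 in Clasp2. It was 0.35 and 0.20 in Ash1l and 0.29 and 0.37 in Elf2. In Tmem164 the measured values were 0.38 and 0.35, with no control array well above background for the sense overlapping probe. The paired probes share 30 to 53 bases in a row and can bind the same RNA, so they are not independent measurements.

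**Figure D3:**
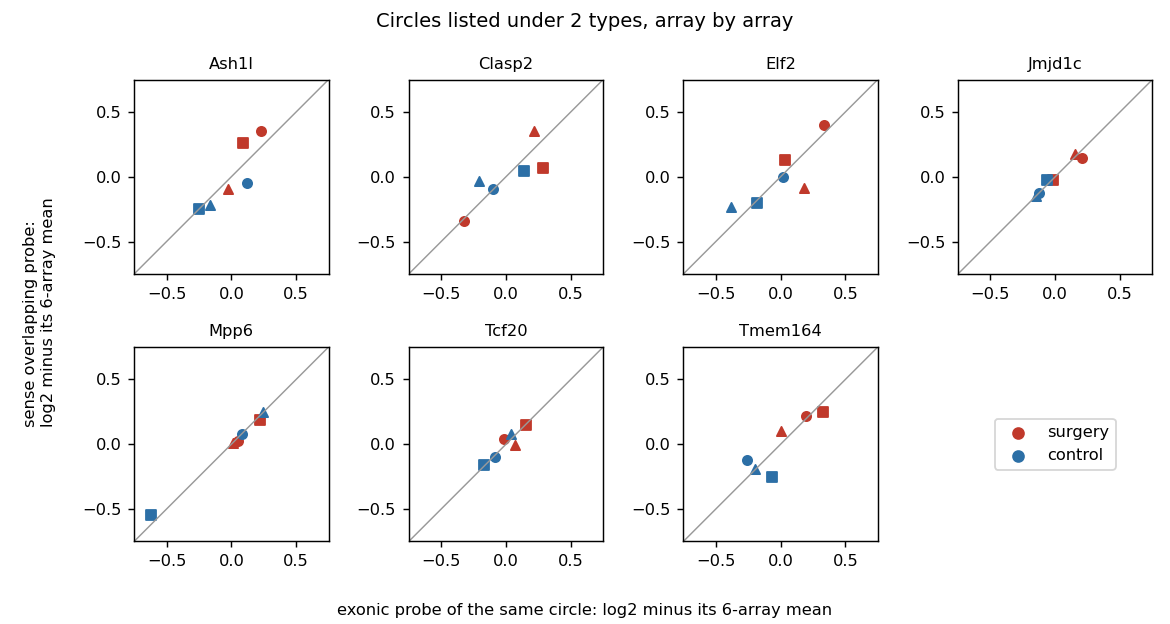
For 7 circles listed as sense overlapping and as exonic, each point is 1 array, with the log2 intensity of each probe given relative to its own mean over 6 arrays (circles, squares and triangles are replicates 1, 2 and 3). Points on the gray line moved equally on both probes, as in Jmjd1c and Mpp6 (SD of the difference 0.04), and they scatter more in Clasp2 and Elf2 (SD 0.15).

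Pairs that share 1 end only also share a part of the probe. There were 10 of these, with an SD of the difference between 0.09 and 0.22 over the arrays, a range that overlaps that of the 7 pairs above. The intronic Ahcyl2 circles mmu_circRNA_39967 and mmu_circRNA_39963 start at the same base and share 47 bases of probe, and differed between groups by 0.13 ± 0.10 and 0.02 ± 0.10. The Atrnl1 circles mmu_circRNA_19232 and mmu_circRNA_19231, which start 1 base apart and share 22 bases, differed by 0.27 ± 0.11 and 0.08 ± 0.13. AK045681 gave a sense overlapping circle (mmu_circRNA_26095, 0.27 ± 0.10) and an intronic one (mmu_circRNA_26092, 0.09 ± 0.09) with the same start. Vps13b (mmu_circRNA_19131) at 0.22 and Usp15 at 0.20 shared an end with exonic circles that differed by 0.11 and 0.28.

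The 20 intergenic circles carry no host symbol. When their listed spans were set against RefSeq genes of GRCm38.p6, 13 overlapped a gene, 9 of them a long noncoding RNA gene, and 7 overlapped none. Wdr49 and Gramd1c are protein-coding genes on the same strand that contained mmu_circRNA_35606 and mmu_circRNA_29750. The circle mmu_circRNA_28367 (chr15:33048054-33066227, minus strand), lay inside Gm32764, a long noncoding RNA gene whose strand is not given in the table used. Its probe is shown because its groups did not overlap and it lay just under the fold threshold.
mmu_circRNA_28367: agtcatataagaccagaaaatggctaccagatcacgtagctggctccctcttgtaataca

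It read 11.12, 11.04 and 10.91 after surgery and 10.84, 10.51 and 10.62 in controls, without overlap and with a difference of 0.37 ± 0.11 (limma adjusted p = 0.119). The only called intergenic circle, mmu_circRNA_31477 on chromosome 18, lay inside the long noncoding RNA gene Gm33228. It read 6.65, 6.95 and 6.88 against 6.52, 6.43 and 6.40 (0.38 ± 0.10, limma adjusted p = 0.105). It lost its call when either of surgery replicates 2 and 3, or either of control replicates 2 and 3, was left out. With slide row in the fit its difference was 0.20. With slide column it was 0.34, and the circle was not called. The circle mmu_circRNA_27953, which contains Gm41234, read 5.81, 5.83 and 5.85 against a scattered control group of 5.48, 5.79 and 5.28.

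The circles mmu_circRNA_32851 and mmu_circRNA_32855, both inside Gm34459 on chromosome 19, start 28 bases apart and share a run of 20 bases in their probes. They read 5.58, 5.80 and 5.40 against 5.18, 5.52 and 5.42, and 5.23, 5.40 and 5.14 against 4.99, 5.13 and 5.03. The differences were 0.22 ± 0.13 and 0.21 ± 0.10. The second was well above background on no control array, which sets its surgery mean at least 1.06-fold over the measurable level.

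None of the 12 antisense circles was called by limma, beside 8.6% of tested probes with a higher surgery mean. An unadjusted p under 0.05 was found for 2 of the 12, beside 20.7% of all tested probes in either direction, and the methods' t-test called 0. The Tubb5 circle mmu_circRNA_016773 is 80 bases long (chr17:35834970-35835050, plus strand), opposite to this beta-tubulin gene on the minus strand. It read 6.83, 7.18 and 7.42 after surgery and 6.80, 7.10 and 6.58 in controls, and the groups overlapped (0.32 ± 0.17, limma adjusted p = 0.307). Kcnn2, a calcium-activated potassium channel gene, gave mmu_circRNA_31719 with 5.72, 5.65 and 5.56 against 5.79, 5.25 and 4.98. Here control replicate 1 was the highest of all 6 arrays.

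The antisense circles mmu_circRNA_35623 and mmu_circRNA_35625 are listed with 4921511C10Rik, a long noncoding RNA gene on the plus strand of chromosome 3. Their own strand is minus, and on that strand both lay inside Rapgef2, a guanine nucleotide exchange factor gene of Rap, which spans bases 79062511 to 79286545. They share their listed end. The first read 5.66, 5.61 and 5.40 against 5.32, 5.35 and 5.13 with no overlap (0.29 ± 0.11), and the second 5.75, 5.92 and 5.89 against 5.52, 5.52 and 5.81 with overlap (0.24 ± 0.11). The other antisense circles named by the rule, of Cntnap5c and of mmu_circRNA_012213 with no host symbol, differed by 0.10 and 0.03.

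Detection differed by type and by array. The probe was detected on all 6 arrays for 33 of 45 intronic (73.3%), 106 of 151 sense overlapping (70.2%), 8 of 20 intergenic (40.0%) and 3 of 12 antisense circles (25.0%). The share was 67.3% in the exonic rows and 73.7% in all tested probes. All 228 were detected on surgery replicates 2 and 3 and 213 on surgery replicate 1. On control replicates 1, 2 and 3 the numbers were 152, 215 and 199. For the 1029 exonic rows they were 993, 1029 and 1029 on surgery replicates 1, 2 and 3, and 695, 982 and 944 on the controls. Nothing is read from the lower control numbers, since the list chose circles with a higher surgery mean. Of the 41 members detected on 5 arrays, 40 were missed on control replicate 1, the array with the fewest detected probes overall. On that array 4 of 12 antisense and 9 of 20 intergenic circles were detected. In 8 of the 228 no control array was well above background, and the part of dimness in their differences was not tested.

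**Figure D4:**
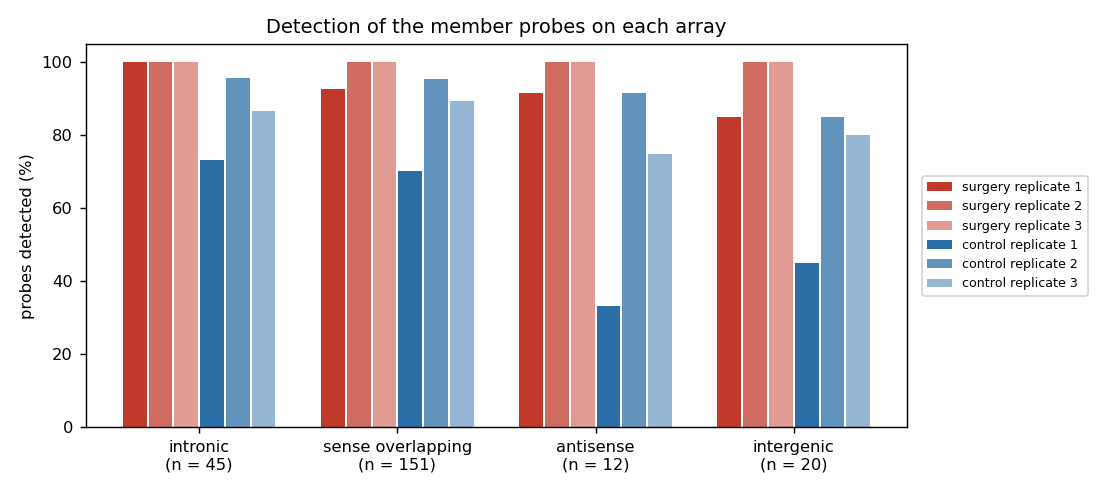
Share of the probes of each type detected on each array, in percent, with surgery arrays in red and control arrays in blue. Control replicate 1 detected the smallest share in every type, and in antisense and intergenic circles less than in the others.

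Synapse and channel genes hosted 18 of the circles from 17 genes. Of these, 4 were called (Cnr1, Ntrk3, Slc8a1 and Cacna2d1), and in 8 the groups did not overlap. Among all tested probes with a higher surgery mean, 8.6% were called and 27.6% did not overlap. The median difference was 0.25, against 0.14 for those probes, -0.01 for all tested probes and 0.12 for the 228. Below the called ones stood Asic2, an acid-sensing ion channel, whose intronic circle read 6.08, 6.25 and 6.16 against 5.83, 5.81 and 5.81. Its groups did not overlap, with a fold change of 1.27 that missed the threshold. Dlgap2, a postsynaptic scaffold gene, gave an intronic circle at 0.29 ± 0.10 and a sense overlapping one at 0.18 ± 0.10. Syt16 (0.28), Lrrtm4 (0.26), Lingo2 (0.24) and Slc8a3 (0.22) followed. The differences of Sv2b, Flrt1, Kcnk13 and Rims1 were 0.12, 0.06, 0.04 and 0.02. Rims1 encodes a scaffold of the presynaptic active zone. Its probe read 11.29, 11.32 and 11.39 after surgery and 11.45, 11.07 and 11.43 in controls, and the groups overlapped. The antisense circles of Kcnn2 and Cntnap5c, also on this list, are given above.

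A list of 8 long noncoding RNA host symbols held 11 circles, 2 of them the antisense circles of 4921511C10Rik, and it leaves out other circles over RefSeq long noncoding RNA genes. Of the 11, 0 were called and 4 did not overlap between groups, with a median of 0.18 (8.6%, 27.6% and 0.14 for tested probes with a higher surgery mean). Meg3, the maternally expressed RNA of the imprinted chromosome 12 region, gave a circle of 339 bases that read 8.25, 8.91 and 8.79 against 8.26, 8.34 and 8.47. Surgery replicate 1 lay level with the lowest control, and the difference was 0.29 ± 0.16. Rmst, a neural long noncoding RNA, read 7.84, 8.26 and 7.97 against 7.75, 7.80 and 7.74 without overlap (0.26 ± 0.12), and its exonic circle mmu_circRNA_22447 differed by 0.30 ± 0.13. The Sox2ot circle, from the RNA that overlaps Sox2, differed by 0.20 ± 0.09. The circle of 3110039I08Rik differed by 0.18, those of 0610043K17Rik by 0.14 and 0.08, that of Dlx6os1 by 0.11, and those of Lincpint by 0.04 and 0.01. The second member of the imprinted chromosome 12 region, mmu_circRNA_011995 with Mir666 and Mir543, differed by 0.09 ± 0.09.

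The imprinted region of chromosome 7, from which Ube3a and the Snord116 and Snord115 transcripts are expressed, held 7 circles within bases 59240966 to 62119043. None was called (8.6% of tested probes with a higher surgery mean), none separated the groups (27.6% of those probes), and the median was 0.10 (0.14). The Ube3a circle mmu_circRNA_19462 lies on the plus strand and differed by 0.03 ± 0.10. The other 6 lie on the minus strand. The U80893 circles mmu_circRNA_41511 and mmu_circRNA_41512 end apart but start at the same base. They read 6.72, 7.25 and 7.49 against 6.65, 7.03 and 7.04, and 5.72, 6.16 and 5.94 against 5.69, 5.91 and 5.75. Replicate 1 was the lowest array of its group on both probes in both groups. The circles mmu_circRNA_41566, mmu_circRNA_41498, mmu_circRNA_41491 and mmu_circRNA_41529 differed by 0.14, 0.10, 0.08 and 0.07. None of the host genes listed for the imprinted regions of chromosomes 7 and 12 had an exonic row.

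Chromatin and transcription genes hosted 22 circles from 21 genes. Of these, 4 were called (Kdm4d, Npas3, Nfix and Taf15), 9 did not overlap between groups, and the median was 0.22, beside 8.6%, 27.6% and 0.14 for tested probes with a higher surgery mean. Cell adhesion genes hosted 7 circles, 0 called and 1 without overlap, with a median of 0.08 beside the same values. Nothing particular to a list is read from these counts, since the lists were chosen with results known. Of lists of marker genes for neurons, astrocytes, oligodendrocytes, microglia and endothelium, only the neuronal list had a host here. It was Dcx (doublecortin, of migrating young neurons), with 6.33, 6.41 and 6.81 against 5.97, 6.62 and 6.19. The groups overlapped, and these circles therefore do not check the tissue label or the cell makeup.

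**Figure D5:**
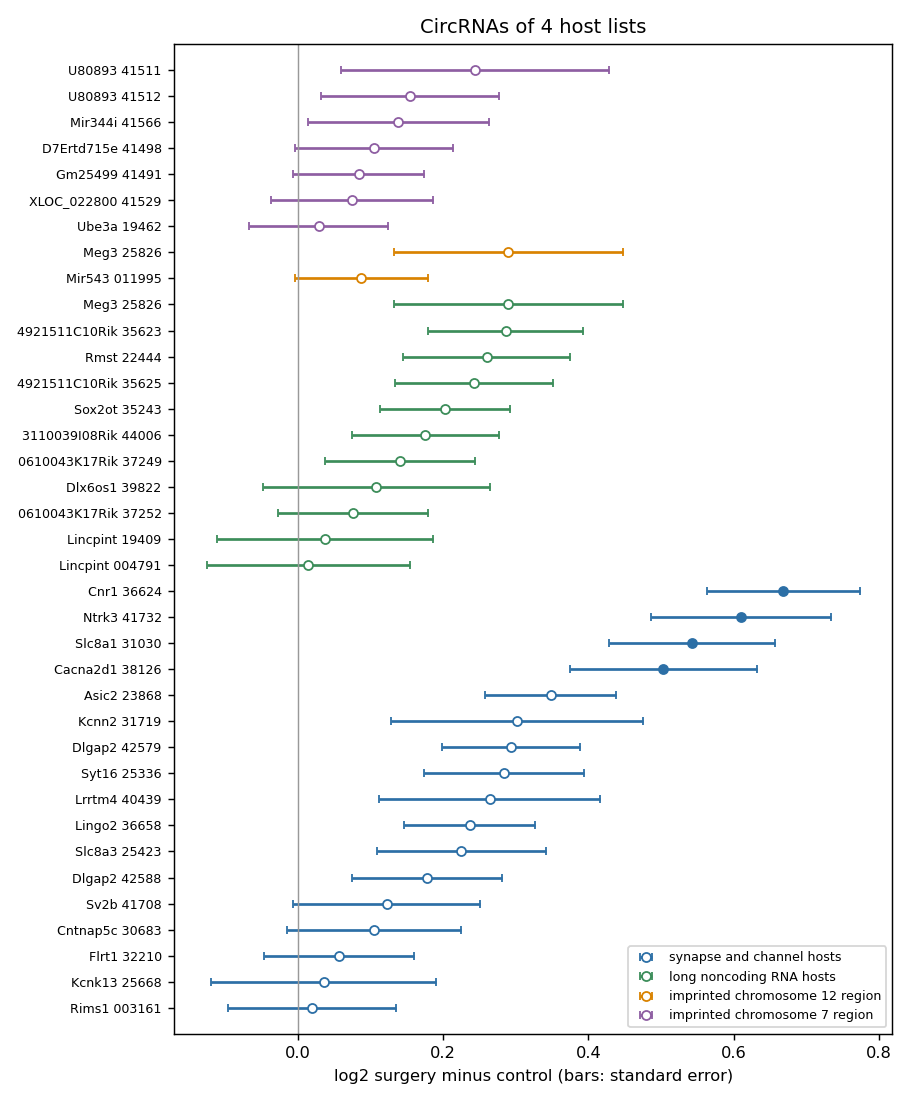
Log2 difference, surgery minus control, with the standard error of the limma fit for the circRNAs of 4 lists of host genes (3 mice per group), with 17 of the 18 circles of synapse and channel hosts shown. Filled points were called, all 4 of them among synapse and channel hosts (0.50 to 0.67), and the 7 circles of the imprinted chromosome 7 region lie between 0.03 and 0.24.

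The remaining short circles had small differences. Tef (118 bases) differed by 0.17, Rpn2 (67) by 0.14, Dapk1 (162) by 0.07, Mtdh (68) by 0.07 and Macf1 (87) by 0.05. In all of these and in Ehd4 (153) the groups overlapped or touched, while 27.6% of tested probes with a higher surgery mean did not overlap. In Ehd4 no control array was well above background, and no difference is given for it. Probe composition was alike across types, with a median GC content of 41.7% in intronic and 43.3% in the other types and in exonic rows. The median listed span was 5205 bases in intronic, 10169 in sense overlapping, 1481.5 in antisense, 17390 in intergenic and 13654 in exonic circles.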

How the data were processed

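The authors digested hippocampal RNA with RNase R, labeled it with Cy3 and hybridized it to the Arraystar mouse circRNA array, 1 mouse per array. For each spot the deposited files, written by Agilent Feature Extraction 11.0.1.1, give the median signal, the median background and a background-subtracted processed signal as an intensity, not normalized between arrays. The submitters' processing notes name limma.

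The members are the readable non-exonic rows of the study's list of circRNAs with a higher surgery mean. Only its 1257 rows read here were used, and identity, type, position and probe sequence were taken from it, no values. Those rows stand in the alphabetical order of their probes, which all begin with A. The members and gene lists were chosen with earlier results of these data known.

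Median signals were quantile normalized over all spots and log2 transformed. A probe was tested if detected on at least 3 of 6 arrays, detected meaning well above background and positive and significant. Spots marked not uniform were left out (14 tested probes, 0 members). Groups were compared by linear models with moderated variances (limma 3.58.1, R 4.3.3), and the steps were tested on simulated data. The smallest p of an exact test of 3 against 3 mice is 0.1.

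Named were the 4 largest differences of each type (6 for sense overlapping), circles under 200 bases, members whose probes share at least 20 bases with another listed probe, members of the imprinted, long noncoding RNA and synapse lists, and those next to the thresholds. Other members given with values (Npas3, Gak, Agfg1, Tmem161b, Dcx, Ap2b1, Nbas, Zswim6 and Gfm1) were singled out after their values were seen. One member of the synapse list is counted in it but not reported here. Genes, promoters and microRNAs are from RefSeq (GRCm38.p6). No genome was used, so exons and flanking bases were not read. Plots used Python 3.11.15 and matplotlib 3.10.9. The alternatives were other normalizations, background corrections, filters, fits and each array left out, and, added after seeing the data, slide row and column as covariates.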

Additional observations from a re-analysis of the deposited data

How the results depend on the processing

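Of 228 circles, 19 were called, and of all tested probes 766 (524 higher, 242 lower). The counts for the members and for all probes were 39 and 1334 without normalization, 42 and 2857 with the processed signal scaled to its 75th percentile, and 8 and 274 with normexp at an offset of 50. With slide row as covariate, added after seeing the data, they were 19 and 1219. The slide row counts rest on surgery replicate 1 alone against the controls, so nothing is read from them. The members called there were not all the same as in the main fit. The processed signal turned the split over all probes to 1097 higher and 1760 lower (38.4% higher against 68.4%). Leaving out 1 array at a time gave 13 to 29 members called (29 without control replicate 1, of which 28 higher) and 657 to 1148 of all probes. The median of the intronic circles (0.17) was 0.29 with the processed signal, 0.14 with normexp at 50, 0.13 where detection on all 6 arrays was required, 0.14 with slide row, and 0.12 to 0.19 with 1 array left out. The sense overlapping median (0.12) was 0.081 without normalization, 0.17 with the processed signal and 0.083 with normexp at 50. Without normalization the antisense and intergenic medians were -0.018 and -0.00021. The antisense median (0.10) was 0.17 with the processed signal and 0.07 to 0.17 with 1 array left out (0.16 without surgery replicate 1, 0.17 without control replicate 2). It was 0.063 where detection on all 6 arrays was required and 0.14 with normexp at an offset of 16. The intergenic median (0.09) was 0.057 with normexp at 50 and 0.08 to 0.12 with 1 array left out. With slide column as covariate 14 members and 707 of all probes (415 higher) were called, 5 of the 14 among the 19. The cause of these shifts was not tested. Of the 19 called circles, 7 were called in every fit with 1 array left out and 1 (Cnr1) under every alternative, and 7 had an adjusted p under 0.05 under at least 1 alternative. No called value among the 79 named circles changed sign, and 115 of 1632 moved by more than the spread between mice. Whether replicate numbers pair the mice could not be settled with 3 arrays per group. Deviations of same-numbered arrays correlated at 0.28, 0.25 and -0.02, and those of differently numbered arrays at -0.36 to 0.17. With a replicate block 20 members and 797 of all probes were called. With an adjusted p under 0.05, 0 members and 6 of all probes were called, against 8 and 157 without normalization, 5 and 199 with the replicate block, 4 and 153 with an intensity trend, 2 and 113 with array weights, 1 and 59 with normexp at an offset of 16, 1 and 13 with cyclic loess, and 2 and 82 without control replicate 1. At 3 mice per group, dim probes and a spread of about 0.12 limit what can be seen.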
